A study of Mus musculus with 18 samples.

Results

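The Mtdh knockout effect in mouse hepatocytes treated with TGFb was read from 6 RNA-seq libraries of the 18 in the study. Of these, 3 came from hepatocytes of Mtdh knockout (KO) mice and 3 from hepatocytes of age-matched wild-type (WT) mice, and all 6 were chosen by their labels alone. The mice were labelled as normal and without a tumor. Both groups received TGFb, and no untreated group was analysed here, so a difference below is one between genotypes under TGFb and not a response to TGFb. The other 12 libraries held KO and WT hepatocytes treated with TNFa or with conditioned medium (CM) from Kupffer cells that had received Py8119-EVPs, 3 libraries for each genotype and treatment. The sources used here do not give the dose, time, sex, age, strain or removed part of Mtdh. The 3 libraries of a group are called biological replicates, without saying whether each came from its own mouse, so p-values measure the spread between libraries. The study's title links Mtdh of the host to liver lipid metabolism and to T cells, and lipid genes are therefore described in full.

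Hepatocytes are the main cells of the liver, and they break down amino acids, make urea, glucose, bile acids and lipoproteins, secrete plasma proteins and detoxify drugs. TGFb is a cytokine that binds the receptors TGFBR2 and TGFBR1, which phosphorylate SMAD2 and SMAD3, and in hepatocytes it is known for slowing growth, for inducing matrix and wound genes and for lowering genes of the differentiated cell. Mtdh encodes metadherin, also called AEG-1 or LYRIC, a membrane-anchored protein of the endoplasmic reticulum that binds the nuclease SND1 and has been linked to NF-kappaB signaling and to liver fat.

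Values are normalized signals per gene and library as the authors deposited them. A gene's fold change is the KO minus WT difference of the means of log2(value + 1), 3 libraries against 3, and it understates the change of low genes. The standard error after each ± comes from 1 limma fit over all 18 libraries. It pools the spread of the 6 groups and draws on other genes, so it is not the spread of the TGFb libraries alone. A gene is said to have risen or fallen where limma's Benjamini-Hochberg adjusted p was below 0.05, over 14455 genes tested. An estimate of depth gave 19.4 to 28.4 M reads for the 6 libraries, with 14063 to 14668 genes at 1 read or more. Replicates correlated at 0.940 to 0.954 on the log2 scale. Albumin, the marker of the cell type named in the labels, held 7.44 to 10.3% of a library's summed values. Bulk RNA cannot tell fewer cells of a type from less RNA per cell.

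Mtdh itself had values of 973, 970.4 and 933 in KO and 13598, 13725 and 12873 in WT libraries. All 3 KO libraries lay far below all 3 WT libraries, with a KO mean at 7.15% of that in WT (-3.80 ± 0.11, limma adjusted p = 2.3e-21). Whether the remaining reads fall outside the removed part was not tested. Snd1, the gene of its binding partner, did not pass (0.20 ± 0.12).

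Among the genes tested, 1764 passed, 1048 higher and 716 lower in KO, against a median fold change of -0.01. This set the background for every gene group below: 12.2% of all genes passed, 7.25% higher and 4.95% lower. The 2 groups of libraries did not overlap for 26.7% of all genes, and for 1715 of the genes that passed. The counts fell most on the lower side when 1 library was left out, to 806 higher and 466 lower without KO 1, 855 and 477 without WT 1, and 816 and 456 without WT 3. Scaling every library to an equal total instead gave 830 rises and 1494 falls, with a median over all genes of -0.12. Summed values were 25.7 to 26.4 M in KO and 24.2 to 24.3 M in WT libraries. Equal totals therefore lower KO values against WT values by the same factors in every gene, and all counts with equal totals below carry this shift.

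The largest rise was in Tspyl5, a gene of the nucleosome assembly family that lies close to Mtdh, with values of 164, 164 and 85 in KO and 1.02, 1.19 and 1.25 in WT libraries. Each WT library thus held about 1 read, and by estimated reads, 393 against 3, the KO level was 114 times the WT level per depth, with a 95% counting interval of 38.7 to 554. That interval covers the counting of summed reads only and leaves out the spread between libraries. Hal, which starts histidine breakdown, followed a clear step between genotypes with 2414, 2008 and 2175 in KO and 338, 422 and 479.7 in WT libraries (2.42 ± 0.14, adjusted p = 2.2e-13). Its groups did not overlap. Cyp2b13, a P450 enzyme that female livers express most, had 5795, 5214 and 6146 in KO and 989, 1017 and 1123 in WT libraries (2.45 ± 0.12, adjusted p = 5.6e-15). The sulfotransferases Sult2a3 (2.50 ± 0.21) and Sult2a5 (2.80 ± 0.48), the glutathione transferases Gsta2 (2.50 ± 0.30) and Gstm3 (2.34 ± 0.34), the P450 enzyme Cyp2d9 (2.51 ± 0.42) and the organic anion transporter Slc22a29 (2.59 ± 0.52) also rose. These belong to families with close paralogs, so reads may be split between their members. Outside metabolism, the synaptic vesicle calcium sensor Syt1 (2.39 ± 0.36) and Cd5l (2.80 ± 0.21), a protein that macrophages secrete, were among the 12 largest rises of genes with a mean value of 50 or more and separate groups. Hao2, a peroxisomal hydroxyacid oxidase, had 329.6, 300.4 and 262 in KO and 142, 19.1 and 6.23 in WT libraries. Its WT libraries spread widely, and its rise (3.43 ± 0.83, adjusted p = 0.0048) did not pass without WT 3 (2.47, adjusted p = 0.069).

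After Mtdh, the fall with the smallest adjusted p among the 12 largest, chosen in the same way, was in Srgap3, an activator of Rac GTP hydrolysis, with 416, 507 and 596 in KO and 2075, 1982 and 2022 in WT libraries (-2.01 ± 0.14, adjusted p = 6.8e-12). Csad, which makes hypotaurine from cysteine sulfinate in taurine synthesis, had 157, 205 and 273 in KO and 1229, 1369 and 1267 in WT libraries (-2.63 ± 0.24, adjusted p = 1.5e-09). In both genes the highest KO library stayed below the lowest WT library. Ntrk2, the receptor for brain-derived neurotrophic factor, fell from low WT levels, with 19.7, 20.1 and 17.9 in KO and 135, 192 and 141 in WT libraries (-2.94 ± 0.62, adjusted p = 0.0012). The phospholipase receptor Pla2r1 (-2.01 ± 0.38), the glucuronosyltransferase Ugt2b37 (-1.86 ± 0.41) and the basement membrane collagen Col15a1 (-1.81 ± 0.21) fell as well. The sulfotransferase Sult3a2 (-3.28 ± 0.88) did not pass without KO 2 (-2.77, adjusted p = 0.060). The myosin Myo18b (-2.56 ± 0.70) did not pass without KO 2 (-1.46, adjusted p = 0.14) or without WT 2 (-2.43, adjusted p = 0.052). The claudin Cldn34c1 (-1.81 ± 0.60) was -0.87 (adjusted p = 0.40) without KO 1, and it failed without any 1 of the WT libraries (adjusted p between 0.083 and 0.16). The small heat shock gene Hspb7 (-2.06 ± 0.63) passed with all libraries but failed when any 1 of the 6 was left out (adjusted p between 0.054 and 0.10).

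**Figure D1:**
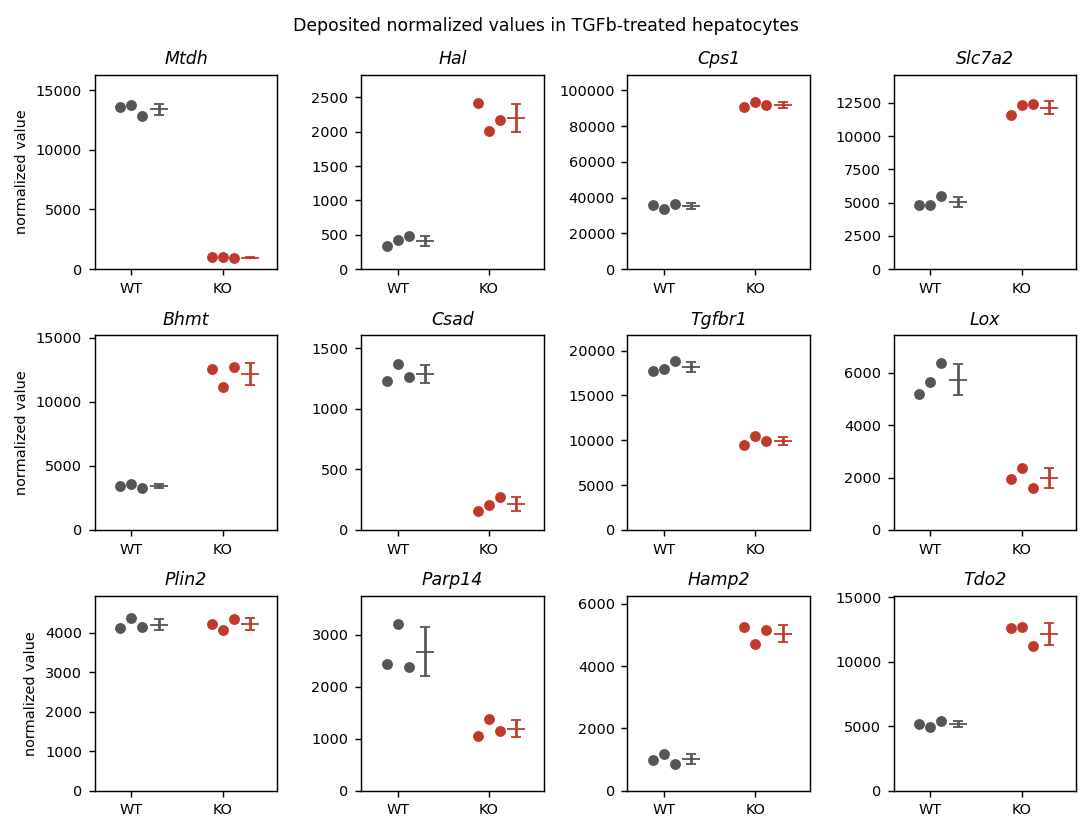
Deposited normalized values (vertical axes, linear, from 0) of 12 genes in the 3 WT (grey) and 3 KO (red) TGFb-treated libraries, 1 point a library, with the mean and SD beside them. The 3 Mtdh points of KO lie between 933 and 973 against 12873 to 13725 in WT, while the Plin2 points of both genotypes overlap.

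Enzymes that take amino acids apart were the gene group with the largest share of calls among the metabolic groups examined. Of 59 amino acid breakdown genes tested, 51 rose, 0 fell and 8 did not pass, with a median of 0.99 against -0.01 over all genes. The range of risers with a library left out was 47 to 50. Tdo2, the first enzyme of tryptophan breakdown, had 12649, 12674 and 11212 in KO and 5144, 4985 and 5447 in WT libraries (1.23 ± 0.09, adjusted p = 6.8e-12). Every KO library of Tdo2 lay above every WT library. Got2, a mitochondrial aminotransferase, did not pass (0.16 ± 0.09, adjusted p = 0.31).

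The urea cycle disposes of the ammonia that this breakdown releases. Of 20 genes for the cycle and for ammonia and arginine handling, 16 rose and 0 fell, with a median of 1.19. Cps1, which fixes ammonia in the first step, had 90604, 93822 and 91652 in KO and 35923, 33621 and 36616 in WT libraries (1.38 ± 0.09, adjusted p = 8.0e-13). The later enzymes in order were Otc (1.12 ± 0.09), Ass1 (1.34 ± 0.10), Asl (1.29 ± 0.12) and Arg1 (1.07 ± 0.10), so each of the 5 enzymes rose. Slc25a15, which carries ornithine into mitochondria, had 7226, 6997 and 6886 in KO and 2715, 2788 and 2595 in WT libraries (1.38 ± 0.08, adjusted p = 3.5e-13). Slc7a2, a transporter of arginine and other cationic amino acids, had 11592, 12370.2 and 12450.1 in KO and 4846, 4793 and 5516 in WT libraries (1.27 ± 0.08, adjusted p = 2.5e-12). Slc38a4, a carrier of neutral amino acids into hepatocytes, had 12879, 11834 and 11798 in KO and 4429, 4629 and 4503 in WT libraries (1.43 ± 0.09, adjusted p = 4.0e-13). Groups were apart in all 4 genes given by library, and Gls2, the liver glutaminase, rose as well (1.56 ± 0.10). Nags, which makes the activator of CPS1, did not pass (0.21 ± 0.27, adjusted p = 0.71), nor did Glul, the glutamine synthetase of cells around the central vein (0.24 ± 0.11, adjusted p = 0.19).

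**Figure D2:**
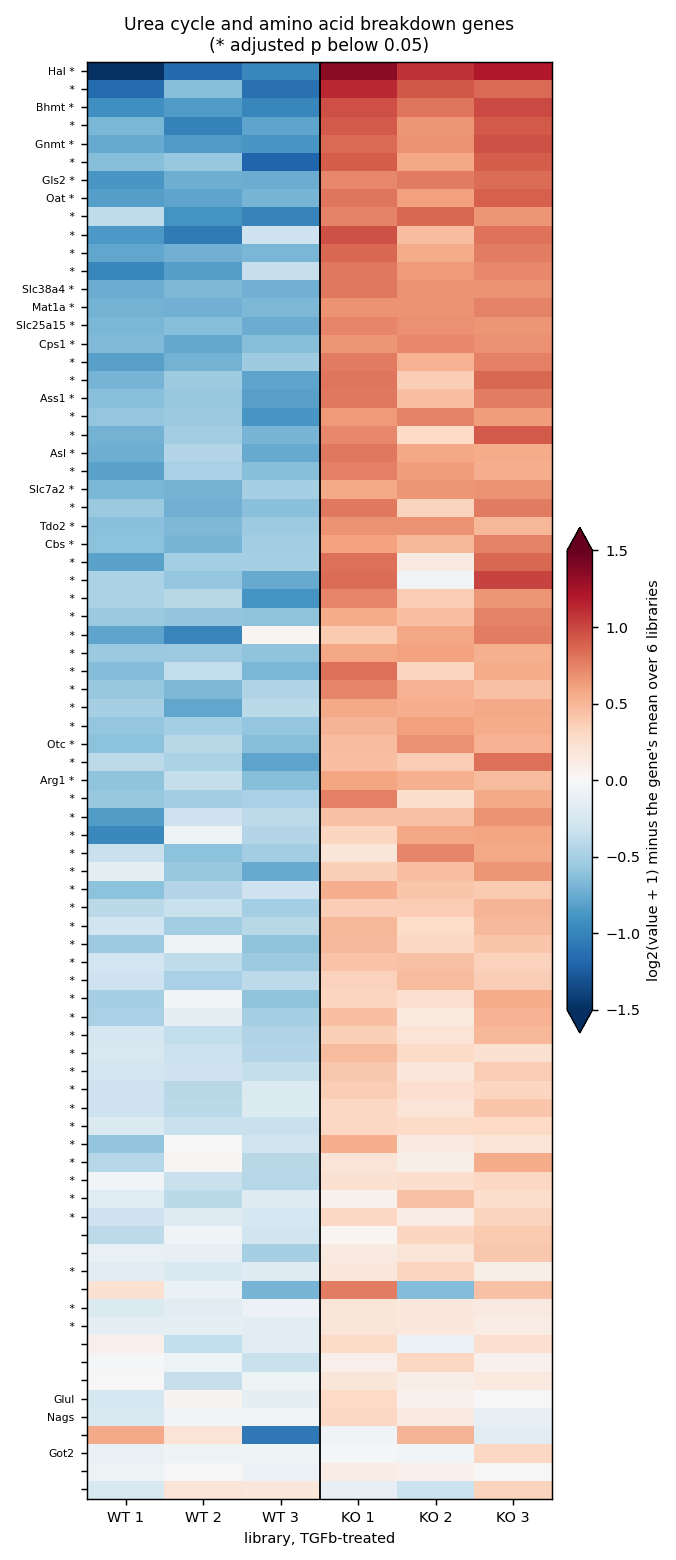
Color gives log2(value + 1) minus the mean over the 6 libraries for 79 urea cycle and amino acid breakdown genes (rows, ordered by fold change), with 3 WT and 3 KO TGFb-treated libraries as columns, names for the genes given in the text and an asterisk marking adjusted p below 0.05. The 67 marked genes are mostly red in KO and blue in WT, and the unmarked rows toward the bottom are pale or mixed.

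In the methionine cycle and the paths from it to cysteine and taurine, 11 of 16 genes rose and 2 fell (median 0.67), several of them also members of the breakdown group. Mat1a, which makes the methyl donor S-adenosylmethionine, had 46364, 46298 and 48725 in KO and 17842, 17638 and 18259 in WT libraries (1.40 ± 0.09, adjusted p = 7.0e-13). Gnmt, which uses up that methyl donor on glycine, had 5683, 5024 and 6118 in KO and 1868, 1749 and 1718 in WT libraries (1.65 ± 0.10, adjusted p = 3.5e-13). Bhmt, which returns homocysteine to methionine with betaine, had 12562, 11176 and 12723 in KO and 3389, 3559 and 3253 in WT libraries (1.84 ± 0.09, adjusted p = 1.3e-14). None of these 3 genes overlapped between groups. Cbs, the entry from homocysteine to cysteine, rose (1.23 ± 0.13), as did Cdo1, which oxidizes cysteine (0.47 ± 0.09). The 2 members that fell act at the end of the path, Csad (above) and the taurine transporter Slc6a6 (-0.31 ± 0.09). The Slc6a6 call was lost without KO 1, KO 3, WT 1 or WT 2 (adjusted p between 0.054 and 0.098).

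Of 32 genes of glucose production and glycolysis, 15 rose and 0 fell (median 0.23), but with equal totals 13 rose and 5 fell. Pck1, which commits carbon to glucose synthesis, had 13130.5, 10440.5 and 13698 in KO and 3989, 4483 and 4461 in WT libraries (1.52 ± 0.11, adjusted p = 6.3e-12). G6pc, which releases free glucose in the last step, had 3955, 3008 and 3492 in KO and 1109.7, 1038 and 1115 in WT libraries (1.67 ± 0.17, adjusted p = 1.9e-08). Slc2a2, the main glucose carrier of the hepatocyte membrane, had 6169.7, 6993 and 6128 in KO and 2160.1, 2082 and 2316 in WT libraries (1.55 ± 0.09, adjusted p = 9.2e-14). KO and WT libraries of these 3 genes were separate. Fbp1, another control enzyme of glucose synthesis (1.20 ± 0.10), also rose.

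Among lipid genes, enzymes that burn fatty acids were higher. Of 38 fatty acid oxidation enzymes, 23 rose and 0 fell (median 0.47). Hadh, a mitochondrial hydroxyacyl-CoA dehydrogenase, had 12062, 11948 and 11749 in KO and 6483, 7096 and 7241 in WT libraries (0.78 ± 0.09, adjusted p = 9.8e-08). Cpt1a, which controls the entry of fatty acids into mitochondria, had 1377, 1564 and 1699 in KO and 704, 945 and 939.6 in WT libraries (0.85 ± 0.15, adjusted p = 1.1e-04). Groups did not overlap in either gene. The second carnitine transferase Cpt2 did not pass (-0.18 ± 0.15, adjusted p = 0.55). Crot, which exports chain-shortened acyl groups from peroxisomes (0.69 ± 0.08), Hacl1, an enzyme of alpha oxidation (0.88 ± 0.10), and the peroxisomal thiolase Acaa1b (0.81 ± 0.11) rose.

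Among 27 ketogenesis genes and targets of the fatty acid sensor PPARalpha, 5 rose and 0 fell (median 0.16), and 5 and 1 with equal totals or with quantile normalization. Among them were the ketone body enzyme Bdh1 (0.96 ± 0.20), the fatty aldehyde dehydrogenase Aldh3a2 (0.69 ± 0.10) and the coactivator Ppargc1a (1.10 ± 0.26). Ppara itself had 799, 816 and 598 in KO and 629, 739 and 834 in WT libraries and did not pass (0.00 ± 0.15, adjusted p = 0.99). In the peroxisome group 10 of 29 rose and 1 fell, the ether lipid enzyme Gnpat (-0.34 ± 0.11), whose call was lost without any library other than KO 2 (adjusted p between 0.053 and 0.18), and with equal totals 9 of the group rose and 3 fell. The rises of smallest p-value were urate oxidase Uox (0.91 ± 0.08), the dehydrogenase Idh1 (0.78 ± 0.09), catalase Cat (0.74 ± 0.09), pipecolate oxidase Pipox (0.99 ± 0.14) and glycolate oxidase Hao1 (0.91 ± 0.13).

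Genes listed under fatty acid synthesis, which include acyl-CoA synthetases and regulators beside the synthesis enzymes, were more often higher than lower. Of 26 synthesis genes and lipogenic regulators 16 rose and 0 fell (median 0.45), and 16 and 2 with equal totals. Acss2, which makes acetyl-CoA from acetate, had 3247, 3712 and 3352 in KO and 1787, 1684 and 1937 in WT libraries (0.93 ± 0.11, adjusted p = 2.3e-07). Fasn, the fatty acid synthase, had 5988, 5757 and 7118 in KO and 4234, 4437 and 4676 in WT libraries (0.49 ± 0.10, adjusted p = 7.9e-04). Srebf1, the transcription factor of lipid synthesis, had 3953, 3653 and 4218 in KO and 2672, 2744 and 2939 in WT libraries (0.50 ± 0.10, adjusted p = 8.2e-04). In each of the 3 genes the KO libraries lay above the WT libraries. The acyl-CoA synthetases Acsl1 (0.71 ± 0.09), Acsm3 (1.73 ± 0.23) and Acsm5 (1.55 ± 0.23) and the lipogenic nuclear factor Thrsp (1.54 ± 0.21) rose too. Acly (0.18 ± 0.08, adjusted p = 0.19) and Acaca, the rate-limiting carboxylase (0.17 ± 0.10, adjusted p = 0.32), did not pass.

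Triglyceride and droplet genes showed fewer calls, 7 higher and 2 lower of 37 (median 0.29), and 6 and 3 with equal totals. Lpin1, a phosphatidate phosphatase, had 3252, 3031 and 3344 in KO and 1683, 2108 and 1855 in WT libraries (0.77 ± 0.11, adjusted p = 7.9e-06). Dgat2, which adds the last acyl chain, had 8986, 7330.4 and 7597 in KO and 5890.4, 5132 and 5803 in WT libraries (0.50 ± 0.10, adjusted p = 4.5e-04). Plin2, the main coat protein of hepatocyte lipid droplets, had 4226, 4072 and 4363 in KO and 4117, 4366 and 4150.1 in WT libraries and did not pass (0.00 ± 0.09, adjusted p = 0.99). Its groups overlapped, whereas Plin3 (-0.57 ± 0.11), a related coat protein, fell, and the droplet enzyme Hsd17b13 (0.85 ± 0.13) and the carboxylesterases Ces1g (0.94 ± 0.12) and Ces1f (0.69 ± 0.11) rose. Plin4 (-1.14 ± 0.34) was the other member that fell, and the count of falls was 1 without KO 1, KO 3, WT 2 or WT 3. Of 16 uptake and binding genes 7 rose and 3 fell. Cd36, a fatty acid receptor, had 5337, 6215 and 4992 in KO and 2434, 2205 and 2197 in WT libraries (1.27 ± 0.11, adjusted p = 3.2e-10), and its groups did not overlap, while the lipoprotein receptor Vldlr (-0.43 ± 0.08) fell. The other 2 that fell were Slc27a4 and Fabp4, and 1 was left without WT 3.

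For lipoproteins, 19 of 31 genes rose and 1 fell (median 0.38), a count that depended on single libraries: 11 rose without KO 1, 9 without KO 3, 12 without WT 3, and 9 with equal totals, where 2 fell. Apoa5, which promotes triglyceride clearance, had 2281, 1926 and 2569 in KO and 1027, 1068 and 1179.9 in WT libraries (1.04 ± 0.12, adjusted p = 2.1e-07). Its KO libraries all lay above its WT libraries. The sterol exporter Abcg8 (1.28 ± 0.19), the HDL receptor Scarb1 (0.62 ± 0.12) and Apom (0.64 ± 0.13) rose as well. The structural protein of very-low-density lipoprotein, Apob, had 154438, 202059 and 187394 in KO and 189114, 190693 and 193019 in WT libraries and did not pass (-0.08 ± 0.11, adjusted p = 0.72). Pltp, the phospholipid transfer protein, was the member that fell (-0.88 ± 0.26, adjusted p = 0.022), and it failed without KO 2, WT 1, WT 2 or WT 3 (adjusted p between 0.051 and 0.14). Of 27 cholesterol synthesis genes 7 rose and 2 fell, the rises including Ebp (0.79 ± 0.15) and Sc5d (0.46 ± 0.09). The falls were Fdps and Nsdhl, and neither passed without KO 2, KO 3 or WT 3. With equal totals 5 of these genes rose and 3 fell.

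Genes of secreted plasma proteins rose more often than they fell. Of 38 complement and coagulation factors 21 rose and 1 fell, the clotting factor F11 (-0.84 ± 0.14), with a median of 0.34. Serpind1, a thrombin inhibitor, had 3990.3, 3922 and 3993 in KO and 1743, 1657 and 1802 in WT libraries (1.19 ± 0.11, adjusted p = 1.9e-09). The plasmin inhibitor Serpinf2 (0.73 ± 0.08), plasma kallikrein Klkb1 (0.92 ± 0.11) and the clotting factors F7 (0.91 ± 0.13) and F10 (0.66 ± 0.10) rose as well. Of 38 other plasma proteins 17 rose and 2 fell (median 0.31), and 13 and 4 with equal totals. Serpina6, the carrier of corticosteroids in blood, had 5094, 4099 and 5218 in KO and 1411, 1493 and 1438 in WT libraries (1.72 ± 0.11, adjusted p = 1.3e-12). Its groups were fully apart. Igfbp2 (1.19 ± 0.11), which binds insulin-like growth factors, rose, and the protease inhibitor Mug2 (-0.57 ± 0.08) fell. The second fall was Igf1 (-0.27 ± 0.09), which passed only with all 6 libraries or without KO 2. Alb, the albumin gene, did not pass (0.50 ± 0.19, adjusted p = 0.099), although its 3 KO libraries all lay above its 3 WT libraries.

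The hepcidin genes Hamp2 and Hamp were higher, of which Hamp encodes the peptide known to restrain iron export from cells. Hamp2 had 5246, 4721 and 5153 in KO and 992, 1177 and 864 in WT libraries (2.33 ± 0.12, adjusted p = 2.1e-14). Hamp had 3533, 3617 and 3694 in KO and 1602, 1589 and 1602 in WT libraries (1.18 ± 0.10, adjusted p = 6.9e-10). Neither gene's libraries overlapped, and because the pair is nearly identical in sequence, reads may be split between them. Bmp6, an inducer of hepcidin that sinusoidal endothelium makes, was low, with 52.3, 49.9 and 74.2 in KO and 25.5, 13.2 and 13.7 in WT libraries (1.73 ± 0.46, adjusted p = 0.011), and failed without KO 3 (adjusted p = 0.056). Across 19 iron genes 4 rose and 1, the ferrireductase Steap3 (-1.05 ± 0.19), fell. The fourth riser was Tfrc, the transferrin receptor (0.36 ± 0.12, adjusted p = 0.049), which failed without any 1 of the 6 libraries (adjusted p between 0.063 and 0.16), and 2 iron genes rose without KO 3. With equal totals 3 rose and 2 fell.

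Bile acid and drug genes formed another large block. Of 22 bile acid synthesis genes 13 rose and 0 fell (median 0.83). Cyp7a1, the rate-limiting enzyme of the classic path, had 618, 737 and 747 in KO and 277, 255 and 290.3 in WT libraries (1.35 ± 0.21, adjusted p = 1.8e-05). Akr1d1, which reduces the sterol ring, had 5425, 5745 and 5508 in KO and 1927, 2153 and 2002 in WT libraries (1.46 ± 0.10, adjusted p = 2.7e-12). The KO and WT libraries of both genes were apart. Akr1c14, of a reductase family with close paralogs, rose (1.71 ± 0.10), as did Baat (1.36 ± 0.17), which joins bile acids to taurine. Cyp8b1, which sets the share of cholic acid, did not pass (0.94 ± 0.39, adjusted p = 0.12), nor did Cyp27a1, which starts the alternative path (0.13 ± 0.10, adjusted p = 0.48). Among 25 transporters of bile acids, organic ions and drugs 10 rose and 4 fell. Abcb11, the bile salt export pump, had 7476, 6975 and 7171 in KO and 3592, 3795 and 3312 in WT libraries (1.02 ± 0.10, adjusted p = 4.7e-09). Slc10a1, the bile salt uptake carrier (1.16 ± 0.14), and the organic anion carriers Slco1b2 (1.02 ± 0.08) and Slco2b1 (1.49 ± 0.16) rose, while Slco1a1 (-1.02 ± 0.21) fell. The other falls were Slc22a23, Slc10a2 and Slco2a1, and 2 falls were left without KO 1, KO 2, WT 1 or WT 2.

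Cytochrome P450 genes of family 2, many of which oxidize drugs and steroids, counted 19 rises and 2 falls of 37 (median 0.65). Cyp2a5, the coumarin hydroxylase, had 24264, 23492 and 22399 in KO and 11728, 11948 and 11932 in WT libraries (0.98 ± 0.09, adjusted p = 9.0e-10). The falls were Cyp2c69 (-0.83 ± 0.09) and Cyp2a4 (-0.36 ± 0.09), and Cyp2a4 failed without KO 3. Other oxidizing enzymes counted 16 rises and 3 falls of 30, with the falls in Cyp3a44 (below), Cyp3a41b (-0.72 ± 0.21) and Cyp3a41a (-0.32 ± 0.10) and 1 fall without KO 3, WT 1 or WT 3. Cyp3a41b was -0.37 without KO 3, and Cyp3a41a passed only with all 6 libraries or without KO 2. Among these rises were the alcohol dehydrogenase Adh1 (1.08 ± 0.08), the flavin enzyme Fmo5 (1.64 ± 0.12) and the fatty acid hydroxylase Cyp4f14 (0.90 ± 0.09). Conjugating enzymes counted 23 rises and 3 falls of 47 (median 0.63), with the glutathione transferases Gsta3 (1.31 ± 0.09), Gstt3 (1.84 ± 0.16) and Gstm7 (1.44 ± 0.14) and the sulfotransferase Sult2a1 (0.98 ± 0.09) among the rises. The falls were Ugt2b37, Sult3a2 (both above) and Sult3a1 (-1.61 ± 0.19). These families hold many near-identical paralogs, which leaves single members uncertain.

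Genes known to differ between male and female livers moved in both directions. Of 25 female-biased genes 9 rose and 9 fell, and of 24 male-biased genes 3 rose and 3 fell, or 3 and 5 with equal totals. Within the female-biased group Cyp2b13 rose (above), as did Cyp17a1 (1.63 ± 0.18), an enzyme of androgen synthesis, and Sult2a1. Cyp3a44, another female-biased enzyme, had 1756, 2116 and 1707 in KO and 4692, 4631 and 4412 in WT libraries (-1.31 ± 0.10, adjusted p = 1.3e-10) and was lower in each KO library than in any WT library. Within the male-biased group Ugt2b1 (0.64 ± 0.10), Nudt7 (0.73 ± 0.21) and Cyp2d9 rose, and Mug2, Slco1a1 and the growth factor receptor Egfr (-0.40 ± 0.08) fell. Nudt7 failed without KO 1, WT 1 or WT 3.

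In the TGFb pathway itself, a receptor was lower in KO. Tgfbr1, the kinase that phosphorylates SMAD2 and SMAD3, had 9432, 10420.5 and 9884 in KO and 17758, 17895 and 18811 in WT libraries (-0.87 ± 0.08, adjusted p = 1.3e-09). Its KO libraries all lay below its WT libraries. Tgfbr2, the ligand-binding partner, had 1035, 1131 and 1158 in KO and 840.3, 1074 and 1165 in WT libraries and did not pass (0.12 ± 0.14, adjusted p = 0.66). Of 28 receptors, SMADs and co-regulators, 0 rose and 2 fell, or 0% and 7.14% against 7.25% and 4.95% of all genes. The second fall was Bmpr2, a receptor for bone morphogenetic proteins (-0.33 ± 0.11, adjusted p = 0.047), whose groups overlapped, whose value was -0.20 without KO 1, and which failed when any library other than KO 2 was left out (adjusted p between 0.083 and 0.33). The signal carriers Smad2 (0.00 ± 0.09), Smad4 (-0.13 ± 0.11) and the feedback inhibitor Smad7 (0.28 ± 0.17) did not pass.

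Known direct targets of TGFb split, with 6 higher and 4 lower of 31 (median 0.16). Lox, which crosslinks collagen, had 1945, 2371 and 1606 in KO and 5189.8, 5668 and 6366 in WT libraries (-1.55 ± 0.13, adjusted p = 6.1e-10). Tgm2, a transglutaminase, had 17520.1, 14912 and 18660.0 in KO and 28127, 27624 and 27734 in WT libraries (-0.71 ± 0.10, adjusted p = 3.6e-06). The KO and WT libraries of both were fully apart. The other falls were the connective tissue growth factor Ccn2 (-0.44 ± 0.11) and the integrin Itgav (-0.32 ± 0.08), which failed without KO 1 (adjusted p = 0.087). The inhibitors of differentiation Id2 (0.89 ± 0.16) and Id3 (0.94 ± 0.14), which bone morphogenetic proteins induce, and the stress gene Gadd45b (1.24 ± 0.25) rose. Among 26 matrix and mesenchymal genes 3 rose and 4 fell, but 1 rose and 6 fell with equal totals, and 2 and 5 with quantile normalization. Vim, the intermediate filament of mesenchymal cells, had 2566, 2502 and 2481 in KO and 4406, 4495 and 4675 in WT libraries (-0.85 ± 0.13, adjusted p = 2.6e-05), and S100a6 (-0.59 ± 0.14), the N-cadherin gene Cdh2 (-0.29 ± 0.09) and Lox also fell, while fibronectin did not pass (Fn1, -0.34 ± 0.13, adjusted p = 0.094). The proteoglycans Dcn (1.03 ± 0.25) and Bgn (1.04 ± 0.34) rose, and so did Thbs1 (0.46 ± 0.14), which failed without KO 1, KO 2, WT 1 or WT 3. Bgn failed without KO 1, KO 2, WT 1 or WT 2, and Cdh2 failed without KO 1, KO 3, WT 1 (-0.18) or WT 3. Only 1 member rose without KO 1, KO 2 or WT 1.

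Epithelial junction genes were lower more often than higher, 7 against 2 of 27 (median -0.23), and 12 against 1 with equal totals. Cldn2, a pore-forming claudin, had 696, 676 and 658 in KO and 1424, 1323 and 1566 in WT libraries (-1.08 ± 0.14, adjusted p = 7.2e-07). Cgn, a tight junction protein (-0.64 ± 0.11), Dsp, the desmosome linker (-0.48 ± 0.09), and Jup (-0.55 ± 0.12) fell with it. E-cadherin (Cdh1, -0.32 ± 0.11, adjusted p = 0.048) failed when any 1 of the 6 libraries was left out (adjusted p between 0.074 and 0.14). Rises were limited to 2 gap junction genes, Gjb2 (0.66 ± 0.14) and Gjb1, and 1 rise was left without KO 1 or WT 2. Ductal and dedifferentiation genes counted 0 rises and 5 falls of 20, and 3 falls without KO 1. The falls were Anxa3 (-0.43 ± 0.10), Ly6d (-0.55 ± 0.13), S100a11 (-0.69 ± 0.17), Tmsb10 (-0.62 ± 0.18) and Prom1 (-0.48 ± 0.14). Anxa3 and Ly6d passed in each fit that left out 1 library, S100a11 failed without KO 1, Tmsb10 without KO 2, KO 3 or WT 2, and Prom1 without KO 1, WT 1 or WT 3. The ductal factor Sox9 did not pass (-0.09 ± 0.13, adjusted p = 0.75).

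Of 27 transcription factors of the hepatocyte lineage 3 rose and 2 fell, or 11.1% and 7.41% against 7.25% and 4.95% of all genes. Hnf4a, the master factor of the hepatocyte, had 5229.8, 4209.8 and 4955 in KO and 4321, 4797 and 4283 in WT libraries and did not pass (0.10 ± 0.11, adjusted p = 0.64). Nr1h4, the bile acid receptor FXR, had 452, 376 and 369.7 in KO and 235, 169 and 212 in WT libraries (0.96 ± 0.23, adjusted p = 0.004). The drug sensor Nr1i3 (1.11 ± 0.29) rose as well, while the sterol sensor Nr1h3 (0.68 ± 0.21) failed without KO 1, WT 1 or WT 2. The falls were Onecut2 (-0.42 ± 0.10), which failed without KO 1 (adjusted p = 0.076), and Foxa2 (-1.08 ± 0.31), which failed without KO 1, WT 1 or WT 2 (adjusted p between 0.079 and 0.19).

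Interferon-stimulated genes, which are transcribed when a complex that holds STAT2 and IRF9 binds its DNA element after interferon reaches a cell, fell more often than they rose in KO. Of 46 tested, 2 rose, 20 fell and 24 did not pass, with a median of -0.49. The core of that element was searched as GAAA, any 2 bases and GAAA again, which is TTTC, any 2 bases and TTTC when it lies on the other strand. In RefSeq promoter windows of build GRCm38.p6, from 250 bases before to 50 after a start site, it occurred in 3.44% of 32851 windows and in 18 of 32 tested group members that had a window. Of 16 fallen members with a window, 8 held it, as did the risen member Oas3. The stretches below show 120 bases before the start of the 7 called members whose match lay in that stretch, the strand being that of the gene and the matches in capitals.
Irgm2: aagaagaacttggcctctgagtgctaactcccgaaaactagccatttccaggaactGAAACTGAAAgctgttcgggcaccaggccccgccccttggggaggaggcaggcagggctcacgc
Irgm1: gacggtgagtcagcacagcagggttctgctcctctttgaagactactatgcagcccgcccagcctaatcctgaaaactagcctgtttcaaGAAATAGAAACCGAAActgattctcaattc
Gbp2: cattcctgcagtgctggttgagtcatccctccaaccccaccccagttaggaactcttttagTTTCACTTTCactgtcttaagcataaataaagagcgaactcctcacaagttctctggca
Ifit1: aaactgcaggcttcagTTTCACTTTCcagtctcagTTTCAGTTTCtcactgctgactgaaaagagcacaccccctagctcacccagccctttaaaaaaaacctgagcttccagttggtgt
Rsad2: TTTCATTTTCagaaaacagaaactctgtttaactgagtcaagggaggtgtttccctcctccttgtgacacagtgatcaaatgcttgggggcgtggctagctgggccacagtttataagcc
Trim30a: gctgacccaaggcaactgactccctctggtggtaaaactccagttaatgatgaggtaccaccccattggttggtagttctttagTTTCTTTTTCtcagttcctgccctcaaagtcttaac
Oas3: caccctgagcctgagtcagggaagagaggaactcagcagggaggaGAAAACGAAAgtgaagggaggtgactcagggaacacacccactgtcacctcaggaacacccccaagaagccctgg
Ifit1 held 2 separate matches and Irgm1 held 2 that overlapped, and the remaining 5 held 1 each. Positions on GRCm38.p6, which is not the mm39 build of the deposited table, were chr11:58214857-58214976 for Irgm2, chr11:48871421-48871540 for Irgm1, chr3:142620543-142620662 for Gbp2, chr19:34640769-34640888 for Ifit1, chr12:26456453-26456572 for Rsad2, chr7:104465194-104465313 for Trim30a and chr5:120777660-120777779 for Oas3. The stretches of Irgm2, Gbp2 and Ifit1 are from the plus strand and the other 4 from the minus strand. A match describes letters and not a bound site.

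Parp14, an ADP-ribosyltransferase and the member with the smallest p-value, had 1048, 1377 and 1151 in KO and 2427, 3211 and 2371 in WT libraries (-1.16 ± 0.11, adjusted p = 5.2e-09). Usp18, which removes ISG15 and dampens interferon signaling, had 1826, 1911 and 1558 in KO and 2711, 3234 and 3111 in WT libraries (-0.78 ± 0.11, adjusted p = 3.5e-06). Irgm2, an immunity GTPase with its promoter above, had 687, 849 and 707 in KO and 1238, 1445 and 1295 in WT libraries (-0.83 ± 0.14, adjusted p = 5.3e-05). The highest KO library of each was below the lowest WT library. Ifih1, a sensor of viral RNA (-0.76 ± 0.12), Samd9l (-0.76 ± 0.11), Irgm1 (-0.61 ± 0.13) and Stat2 (-0.94 ± 0.16) fell, whereas Irf9 (-0.36 ± 0.13, adjusted p = 0.078) did not pass. WT 2 was the highest WT library for 17 of the 20 fallen members, among them Ifit1 with 2240.4, 2087 and 1379.7 in KO and 2799, 4345 and 2695 in WT libraries (-0.78 ± 0.17, adjusted p = 0.0019) and Rsad2 with 3528, 3437 and 2589 in KO and 5306, 9664 and 4298 in WT libraries (-0.94 ± 0.20, adjusted p = 0.001). The count of falls was 18 without WT 2 and 17 without KO 3, and the median without WT 2 was -0.38. Without WT 2, Rsad2 was -0.60 and still passed, and Gbp2 went from -0.71 ± 0.21 to -0.39 and failed (adjusted p = 0.28). Gbp2 also failed without KO 3 (adjusted p = 0.17), and Trim30a (-0.89 ± 0.21) was -0.49 without KO 3. The 2 risers were the immunity GTPase Iigp1, with 3130.2, 3144 and 3225 in KO and 1724, 1950.3 and 1499 in WT libraries (0.88 ± 0.12, adjusted p = 4.3e-06), and Oas3 (0.77 ± 0.22), which failed without KO 2 or WT 2.

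Genes of MHC class I presentation gave 4 rises and 2 falls of 24, and 1 and 2 with equal totals. The secreted class I molecule H2-Q10 (0.64 ± 0.09) rose and the class I transactivator Nlrc5 (-0.63 ± 0.13) fell in every fit that left out 1 library. The other calls, H2-K1, H2-Q7, H2-D1 and Tap1, were each lost in at least 1 such fit, so that 1 rise was left without KO 1 or WT 1, 2 without KO 2 or WT 2, and 1 fall without KO 2, KO 3 or WT 2. Tap1 (-0.54 ± 0.16) was -0.34 without WT 2. Of 20 genes for proteins that restrain T cells 4 rose and 1 fell, and 4 and 3 of 21 with equal totals. The calls were the amino acid enzymes Tdo2 and Arg1 (above), Lgals9 (0.73 ± 0.10) and Ceacam1 (0.75 ± 0.12), with Tnfsf10 (-1.52 ± 0.45) as the fall, which failed without KO 3 (-0.997), WT 1 or WT 3. Cd274, the gene of PD-L1, had 1851, 1812 and 1229 in KO and 1450.2, 1623 and 1548 in WT libraries and did not pass (0.06 ± 0.14, adjusted p = 0.86).

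Calls among NF-kappaB, chemokine and immediate-early genes were all rises in the values as deposited. Of 31 NF-kappaB subunits, feedback genes and targets 10 rose and 0 fell (median 0.36), and 7 rose and 1 fell with equal totals. Vcam1, an adhesion molecule for leukocytes, had 591, 571 and 479 in KO and 200.2, 281 and 273 in WT libraries (1.13 ± 0.17, adjusted p = 1.6e-05). Nfkbia, the inhibitor that NF-kappaB induces, had 1742, 1428 and 1216 in KO and 1015, 898 and 796 in WT libraries (0.69 ± 0.13, adjusted p = 3.3e-04). Groups were separate in both genes, and Tnfrsf1b, the second TNF receptor (0.62 ± 0.09), and the mitochondrial superoxide dismutase Sod2 (0.54 ± 0.09) rose too. Among 22 chemokine genes 5 rose and 0 fell, and 3 and 1 of 21 with equal totals. Ccl9, a monocyte attractant, had 2026, 1997 and 1929 in KO and 964, 844 and 932 in WT libraries (1.12 ± 0.12, adjusted p = 5.6e-08), and Cxcl1 (0.95 ± 0.17), a neutrophil attractant, rose. The low Cxcl13 (2.18 ± 0.48) also passed, Cxcl12 (0.45 ± 0.12) failed without WT 2 (adjusted p = 0.10), and Ccl2 (0.54 ± 0.17) failed without KO 1, KO 2, WT 1 or WT 2, with 0.34 without KO 2 and 0.83 without KO 3. The macrophage and endothelial markers given below were higher in the same 3 libraries, and their part in these rises was not tested. Immediate-early genes, which many stimuli and cell stresses induce, counted 9 rises and 0 falls of 28, 5 rises without KO 1, and 6 rises and 2 falls with equal totals. Fosb had 1196, 773 and 1118 in KO and 377, 409 and 404 in WT libraries (1.35 ± 0.19, adjusted p = 5.9e-06), and Fos (0.94 ± 0.19), Zfp36 (0.72 ± 0.11) and Atf3 (0.70 ± 0.12) rose.

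Growth, stress and energy genes were examined as well. Cytosolic ribosomal protein genes gave 0 rises and 1 fall of 51 (median -0.08). The fall was Rpl30, which failed without KO 3, WT 2 or WT 3. Of 33 cell cycle genes Cdt1 (0.80 ± 0.25), Ccnd2 (0.74 ± 0.24) and Mcm6 (0.58 ± 0.15) rose and Rrm2 (-0.46 ± 0.09) fell, with 1 rise without KO 3, 1 rise and 1 fall with equal totals, and Cdt1 at 0.52 without WT 3. In the values as deposited, 9.09% of the cell cycle genes were higher and 3.03% lower, near the background of 7.25% and 4.95%. Of 24 p53 targets Gadd45a (0.73 ± 0.12), Plk3 (0.73 ± 0.18) and Sesn2 (0.33 ± 0.10) rose and Trp53inp1 (-0.38 ± 0.10) and Perp (-0.32 ± 0.10) fell, with 1 fall without KO 1, WT 1, WT 2 or WT 3, 0 without KO 3, and 2 rises and 3 falls with equal totals. Of 27 NRF2 antioxidant genes Osgin1 (0.81 ± 0.16) and Srxn1 (0.24 ± 0.08) rose and Ephx1 (-0.36 ± 0.11) and Tkt (-0.30 ± 0.10) fell, but 1 rose and 7 fell with equal totals, and 1 rose without KO 1, KO 3, WT 1, WT 2 or WT 3. As deposited, 7.41% of the NRF2 genes were higher and 7.41% lower, against 7.25% and 4.95% of all genes. The falls among NRF2 genes were 1 without KO 2 or WT 1 and 0 without WT 2 or WT 3, and Ephx1 was -0.20 without KO 2. Unfolded protein and amino acid stress genes gave 4 rises and 6 falls of 29, and 2 rises and 9 falls with equal totals. As deposited, their shares of 13.8% higher and 20.7% lower were above the background of 7.25% and 4.95%. Among the falls was the serine synthesis enzyme Phgdh (-0.79 ± 0.13). The rises were the chaperone Hspa5 (0.35 ± 0.08), Atf3 (above), Sesn2 and Gdf15 (0.39 ± 0.12), and 2 were left without KO 1, KO 3 or WT 1. Nuclear-encoded respiratory chain genes also stood above the background, with 10 rises and 0 falls of 33 (median 0.33), including Sdhb (0.85 ± 0.12) and Atp5b (0.35 ± 0.08), but 6 rises without KO 1.

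**Figure D3:**
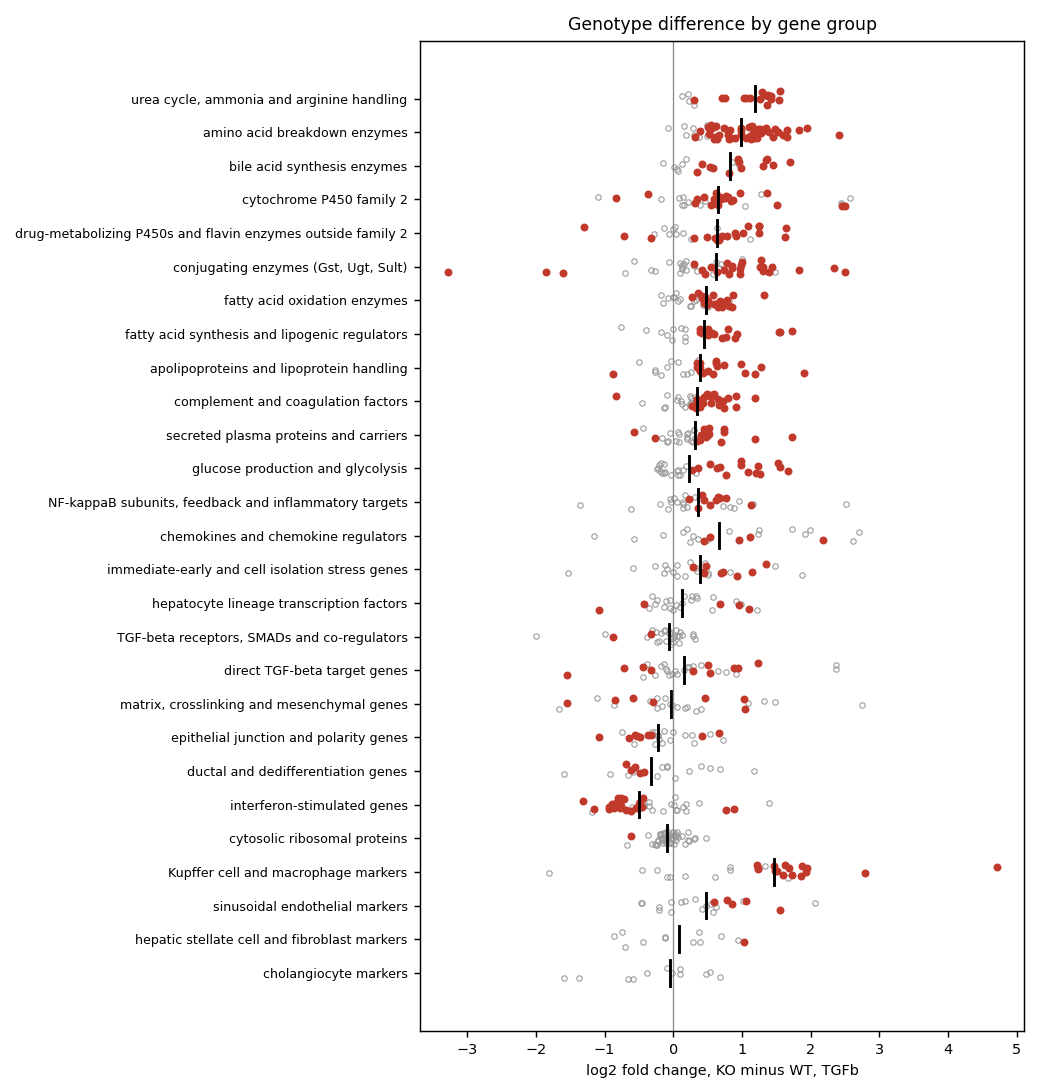
Log2 fold change (horizontal axis, KO minus WT with TGFb) of each tested gene in 27 groups (rows), filled red where adjusted p was below 0.05 and open grey otherwise, with the median as a black bar. The medians run from 1.46 for macrophage markers and 1.19 for the urea cycle to -0.49 for interferon-stimulated genes.

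Markers of other liver cells were measured beside these results. Of 27 Kupffer cell and macrophage markers 16 rose and 0 fell (median 1.46), and their summed level was 0.0437 to 0.0516% of a library in KO and 0.0279 to 0.0304% in WT. Adgre1, the macrophage receptor F4/80, had 727, 404 and 607 in KO and 194, 179 and 88.5 in WT libraries (1.94 ± 0.22, adjusted p = 1.7e-07). Clec4f, a lectin of Kupffer cells, had 313, 326 and 408 in KO and 117, 97.8 and 71 in WT libraries (1.88 ± 0.46, adjusted p = 0.0048). Mpeg1, a pore protein of phagocytes, had 3006, 2639.9 and 3155 in KO and 1136, 1013 and 944 in WT libraries (1.51 ± 0.10, adjusted p = 3.7e-12). In all 3 genes each KO library was above each WT library, and Timd4, a receptor of resident Kupffer cells, had 29.7, 11.3 and 46.7 in KO and was listed at 0 in all 3 WT libraries. Aif1, another macrophage gene, was listed at 0 in all 6. Cd68 (-0.09 ± 0.14, adjusted p = 0.76) and Cd14 (0.17 ± 0.11, adjusted p = 0.38) did not pass. The summed level of 21 sinusoidal endothelial markers was 0.0225 to 0.0274% in KO and 0.0173 to 0.0188% in WT, and Stab1 (0.78 ± 0.17), Cdh5 (0.59 ± 0.12), Egfl7 (1.56 ± 0.46), Ptprb (0.86 ± 0.25) and Mrc1 (1.07 ± 0.32) rose, with 3 rises without KO 1, WT 2 or WT 3 and 2 without KO 3. Stellate cell markers (0.00523 to 0.00709% in KO, 0.00664 to 0.00701% in WT) and cholangiocyte markers (0.0335 to 0.0421% and 0.0410 to 0.0421%) overlapped between genotypes. Their called members were 1 of 12, Dcn, and 0 of 12. T and NK cell, B cell, neutrophil and erythrocyte markers summed to at most 0.00183% of any library, and the called members were Pax5 (-2.42 ± 0.72) of the B cell lineage, which was -1.13 without KO 2 and failed without KO 2, WT 1, WT 2 or WT 3, and the hemoglobin chain Hbb-bs (-4.03 ± 0.84). Hepatocyte markers summed to 14.9 to 15.6% in KO and 12.1 to 12.7% in WT, with 12 of 20 higher. Most of that sum was Alb, which did not pass and held 9.76 to 10.3% in KO and 7.44 to 7.93% in WT. Bmp6 and the 5 called chemokine genes were higher in KO, as were the macrophage and endothelial sums, and Cd5l is itself among the macrophage markers. Ccl2 had overlapping groups, with 598, 698 and 354 in KO and 319, 348 and 435 in WT libraries. Whether these genes followed the sums from library to library was not tested, nor was the part of those cells in these results. The macrophage and endothelial sums cover the listed markers only and are not the share of RNA from those cells.

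The neighbors of Mtdh on chromosome 15 were examined as a group chosen by position. Mtdh lies at 34082840 to 34145771 on mm39. Of 13 tested genes that start within 2 Mb of it 6 were called, 3 of them higher, which is 46.2% against 12.2% of all genes. Rida, a deaminase of reactive imines at 34484167 to 34495402, had 8753, 8002 and 7621 in KO and 2781, 2699 and 3006 in WT libraries (1.52 ± 0.09, adjusted p = 2.2e-13). Vps13b, a lipid transfer protein of the Golgi at 35371306 to 35931376, had 2132, 2496 and 2220.0 in KO and 4385, 4175 and 4109 in WT libraries (-0.89 ± 0.09, adjusted p = 6.7e-09). Sdc2, a heparan sulfate proteoglycan at 32920869 to 33035082, had 3043, 2539 and 2586 in KO and 1705, 1573 and 1479 in WT libraries (0.78 ± 0.11, adjusted p = 5.3e-06). The groups of these 3 were separate. Tspyl5 (above) lies at 33684021 to 33688031, and the peptidase Cpq (-0.50 ± 0.12) and Rpl30 (-0.62 ± 0.18) fell, the second failing without KO 3, WT 2 or WT 3. Laptm4b, the closest of them to Mtdh downstream, had 2321, 2291 and 2311 in KO and 2479.7, 2459.7 and 2473 in WT libraries and did not pass (-0.10 ± 0.10, adjusted p = 0.63). The Vps13b and Cox6c gene models overlap, and reads of 1 could count for the other.

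Whether the genotype difference was larger or smaller with TGFb than with the other treatments was tested as the genotype difference with TGFb minus the mean genotype difference with TNFa and CM, which shares no library with it. Of 14455 genes 96 passed (0.664%), 66 with a positive and 30 with a negative difference (0.457% and 0.208%), and 81 of them had also passed for KO against WT with TGFb. The counts of positive and negative differences were 27 and 24 without KO 1, 123 and 77 without KO 2, 23 and 13 without KO 3, 34 and 16 without WT 1, 33 and 13 without WT 2 and 20 and 9 without WT 3, so these counts changed with single libraries. With equal totals the balance turned, to 24 positive and 59 negative differences. Slc7a2 had the smallest p-value: its genotype difference was 1.27 ± 0.08 with TGFb, -0.03 ± 0.08 with TNFa and 0.33 ± 0.08 with CM (difference 1.12 ± 0.10, adjusted p = 1.6e-07). The retinal dehydrogenase Aldh1a1, with 12006, 10401 and 10129.8 in KO and 4399, 4333 and 4288 in WT libraries, gave 1.32 ± 0.09, 0.23 ± 0.09 and 0.59 ± 0.09 in the same order (difference 0.91 ± 0.11, adjusted p = 1.5e-05). Tgfbr1 gave -0.87 ± 0.08, -0.30 ± 0.08 and -0.17 ± 0.08 (difference -0.64 ± 0.10, adjusted p = 7.7e-04). In these 3 genes the largest genotype difference was that with TGFb.

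Cldn4, Gclc and Slc39a14, also among the 10 of smallest p-value, had larger genotype differences with TNFa or CM than with TGFb. Cldn4, a tight junction claudin, had 34491, 34035 and 38606 in KO and 33084, 34029.8 and 37676 in WT libraries, overlapping groups and a difference of 0.03 ± 0.09 with TGFb, but 0.54 ± 0.09 with TNFa and 1.10 ± 0.09 with CM (difference -0.79 ± 0.12, adjusted p = 7.7e-04). Gclc, the rate-limiting enzyme of glutathione synthesis, gave -0.22 ± 0.09, 0.65 ± 0.09 and 0.40 ± 0.09 in that order (difference -0.74 ± 0.11, adjusted p = 7.7e-04). Slc39a14, a zinc and iron importer, gave 0.01 ± 0.08, -0.53 ± 0.08 and -0.68 ± 0.08 (difference 0.62 ± 0.10, adjusted p = 0.0015). Differences in Slc38a4 (0.69 ± 0.11), Nt5dc3 (0.67 ± 0.11) and the ADP-ribosyltransferase Tiparp (0.68 ± 0.11) were positive. Tiparp rose by 0.31 ± 0.09 with TGFb, a call lost without KO 2, KO 3, WT 1 or WT 2. The difference between treatments of each of the 9 genes named here passed whichever of the 6 TGFb libraries was left out. Of 20 urea cycle and arginine genes 7 had a positive difference, but 3 without KO 1 or WT 1 and 4 without KO 3 or WT 3. Of 26 lipid synthesis genes 6 did, with 3 without KO 1, WT 1 or WT 2 and 2 without KO 3 or WT 3. Of 38 fatty acid oxidation genes 4 did, among them Acaa1b, Crot and Slc27a2, a fatty acid carrier, with 2 without WT 1 or WT 2, 1 without KO 1 or WT 3 and 0 without KO 3. Interferon-stimulated genes gave 0 positive and 0 negative of 46, and macrophage markers 0 and 1 of 27.

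**Figure D4:**
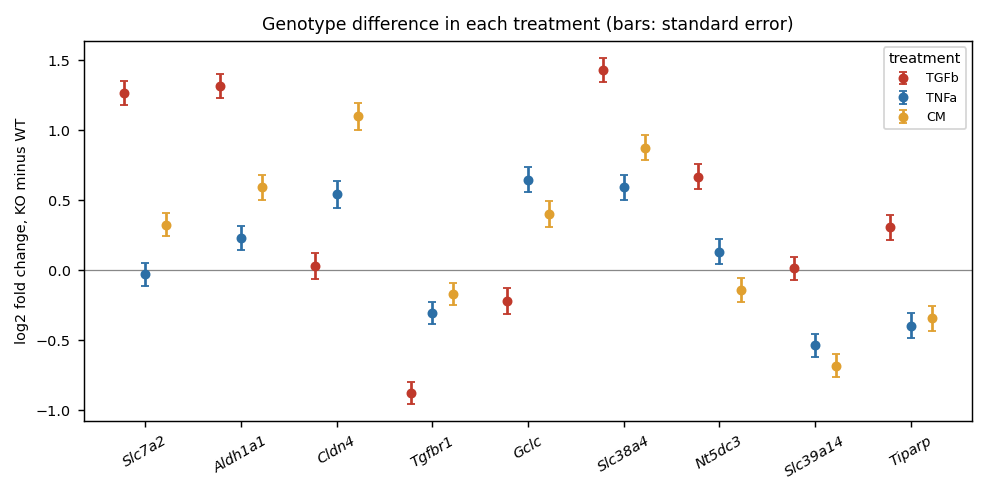
Log2 fold change of KO against WT (vertical axis, 3 libraries against 3) with TGFb (red), TNFa (blue) and CM (yellow) for 9 of the 10 genes with the smallest p-values for the difference between treatments. Bars are the standard error of the fit over 18 libraries, which is the same for a gene in each treatment. Slc7a2 stands at 1.27 with TGFb against -0.03 and 0.33, and Cldn4 lies near 0 with TGFb.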

How the data were processed

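RNA-seq libraries from 18 hepatocyte samples were compared, 6 of them treated with TGFb. The authors deposited a signal per gene and library that the file labels as DESeq2-normalized, and the submitters' processing notes name Partek, STAR 2.7.8a, DESeq2 and mm39, without their settings. Low values gave each library's depth, but only 75.0 to 77.4% of values up to 200 reads lay within 0.05 of a whole read, so counts were not recovered and no count model was fitted. Values were used as log2(value + 1). Genes at a value of 10 or more in at least 3 of the 18 libraries were tested with limma 3.58.1 (R 4.3.3) in 1 fit over 6 groups, with an empirical Bayes trend and Benjamini-Hochberg adjustment over 14455 genes. A second contrast set the TGFb genotype difference against the mean of those with TNFa and CM. Genes were named as the 12 largest rises and falls with a mean of 50 or more and separate groups, the 5 calls of smallest p-value per list, pathway cores, neighbors within 2 Mb of Mtdh and the 10 smallest p-values for the difference. Some genes that this rule selects are not reported here, and members beyond it were named after their values were seen. The gene groups and lists were chosen with earlier results of these data known. Paralog and overlapping genes may share reads, and strand handling is not given in the sources used here.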

Additional observations from a re-analysis of the deposited data

Results flagged for a closer look

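These genes had a KO against WT difference with TGFb that differed from the mean difference with TNFa and CM at a limma adjusted p below 0.05, tested as 1 contrast over 18 libraries. Each value is the first minus the second on the log2 scale. For the amino acid genes it was 1.12 in Slc7a2, 0.69 in Slc38a4, 0.67 in Asl, 0.62 in Slc25a15 and 0.47 in Cps1. Fatty acid genes gave 0.69 in Acss2, 0.67 in Acaa1b, 0.51 in Fasn, 0.51 in Srebf1, 0.48 in Acsl1, 0.48 in Slc27a2 and 0.41 in Crot. Other lipid genes gave 0.83 in Apoa5, 0.82 in Lpin1 and 0.55 in Dgat2. Further enzymes and carriers gave 0.91 in Aldh1a1, 0.62 in Slc39a14, 0.56 in Idh1, 0.56 in Abcb11, 0.54 in Pck1, 0.47 in Slc2a2 and 0.43 in Cyp4f14. The remaining positive values were 1.05 in Fosb, 0.68 in Tiparp, 0.67 in Nt5dc3, 0.66 in Tfrc, 0.60 in F10 and 0.53 in Sod2.

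Negative values were -1.37 in Col15a1, -0.79 in Cldn4, -0.78 in Vim, -0.77 in Lox, -0.74 in Gclc and -0.64 in Tgfbr1.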

How the results depend on the processing

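All 243 named genes that passed kept their direction in the 15 alternatives, and 177 of them also passed in each. The kept direction was largely fixed beforehand, because these genes were chosen from calls in the same libraries. Of the 1764 genes called, 1715 had separate groups, where leaving out 1 library cannot turn the sign. Changes with equal totals carry the common shift given with the background counts, and the cause of the other changes below was not tested. Leaving out 1 library gave 806 to 948 rises and 456 to 783 falls against 1048 and 716, and 20 to 123 positive and 9 to 77 negative differences from the other treatments against 66 and 30. A fit to the 6 TGFb libraries alone, without the spread of the other 12, gave 841 rises and 488 falls. There 1 interferon-stimulated gene rose and 15 fell, 12 macrophage markers rose, and MHC class I genes gave 1 rise and 1 fall. Urea cycle rises stayed at 16, and amino acid breakdown rises were 50. Equal totals gave 1494 falls, 24 positive and 59 negative differences, quantile normalization 34 positive differences and no filter on low values 42. Deviations from the group mean did not correlate between KO and WT libraries of the same replicate number with TGFb (0.007, -0.036 and 0.006). These correlations do not cover a pairing of libraries across treatments within a genotype, which was not tested. A replicate block gave 1007 rises and 647 falls, with 48 positive and 21 negative differences. Named genes also lost their calls with equal totals (Bgn, Ccl2, Ccnd2, Cdt1, Cxcl12, Gdf15, Gjb1, H2-D1, H2-K1, H2-Q7, Nr1h3, Sesn2, Srxn1, Tfrc, Thbs1 and Tiparp) and with quantile normalization (Bgn, Ccl2, Ccnd2, Gdf15, H2-D1, Mrc1, Tfrc, Tkt, mt-Co2 and mt-Cytb). Rises lost with the TGFb libraries alone were Bgn, Bmp6, Ccl2, Ccnd2, Cdt1, Cxcl13, Gdf15, H2-D1, H2-K1, H2-Q7, Mrc1, Nr1h3, Nudt7, Oas3, Ptprb and Sesn2. Falls lost there were Bmpr2, Cdh2, Cldn34c1, Cyp3a41b, Ephx1, Fabp4, Fdps, Foxa2, Gbp2, Gnpat, Myo18b, Pax5, Plin4, Prom1, Rpl30, Slco2a1, Tap1, Tkt, Tnfsf10 and Trim30a.

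Signs turned in genes that did not pass. With equal totals, values were -0.0485 for Cd274, -0.0763 for Cldn4, -0.00906 for Hnf4a, -0.105 for Plin2, -0.105 for Ppara and -0.0932 for Slc39a14. With quantile normalization they were -0.0763 for Cldn4, -0.00865 for Ppara, -0.0231 for Slc39a14 and 0.00694 for Smad2, and recomputed size factors gave 0.00415 for Smad2. Alb was 0 with quantile normalization, which gives a gene of equal rank in all libraries the same value. That 0 was set by the method and is not a turned sign. With 1 library left out, values ran from -0.167 to 0.0273 for Apob, -0.0439 to 0.251 for Cd274, -0.0256 to 0.0876 for Cldn4, -0.214 to 0.0469 for Cox6c, -0.0213 to 0.0293 for Plin2, -0.103 to 0.147 for Ppara, -0.0269 to 0.0614 for Slc39a14, -0.025 to 0.0291 for Smad2 and -0.0157 to 0.22 for Tgfbr2. Genes of few reads, such as Tspyl5 in WT, limit precision, and with 3 libraries a group smaller changes may have been missed.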

Other observations

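Acute-phase proteins, which hepatocytes secrete in inflammation, moved in both directions in KO under TGFb. Of 27 tested, 6 rose and 5 fell (median 0.03), with 3 falls without KO 2 or WT 3 and 2 without WT 1 or WT 2. Lcn2, which binds bacterial iron carriers, had 21256, 18859 and 21017 in KO and 28802, 31419 and 29059 in WT libraries (-0.55 ± 0.10, limma adjusted p = 1.8e-04). Il1rn, the antagonist of the interleukin 1 receptor, had 1593, 2151 and 1831 in KO and 998, 844 and 1030.4 in WT libraries (0.95 ± 0.12, adjusted p = 5.8e-07). The groups did not overlap in either gene, and the 2 hepcidins of the report are among the rises. Saa4 (0.85 ± 0.16), an apolipoprotein that is made without inflammation, rose, while Apcs (-0.60 ± 0.16), the serum amyloid P component, fell.

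Genes of cells around the central vein gave 7 rises and 1 fall of 22 (median 0.27). Oat, which breaks down ornithine, had 6678, 5896 and 7129 in KO and 2165, 2220.1 and 2372 in WT libraries (1.54 ± 0.11, adjusted p = 4.5e-12). Cyp1a2, a P450 enzyme that the dioxin receptor induces, had 5164, 4616 and 5441 in KO and 2719.6, 3095 and 2983 in WT libraries (0.79 ± 0.10, adjusted p = 5.8e-07). Both genes were higher in each KO library than in any WT library. The fall was Ahr, that receptor (-0.35 ± 0.10, adjusted p = 0.024), which failed without any library other than KO 2. Of 13 mitochondrially encoded genes mt-Co2 (0.77 ± 0.22) and mt-Cytb (0.67 ± 0.19) rose, with 0 rises without KO 1, WT 1 or WT 3, 3 without KO 2 and 5 without KO 3. Neither passed with no filter on low values (adjusted p = 0.062 and 0.051) or with quantile normalization, where they were 0.23 (adjusted p = 0.42) and 0.48 (adjusted p = 0.089).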
